A study of Mus musculus with 12 samples.

Results

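The 9 genes described here are known as genes of fat cells and were counted in adult mouse hearts. In pooled counts, 8 of these were low in ribosome pull-downs beside whole heart RNA, while Cidea departed from the others. For Plin1 in Rpl3l-/- hearts, however, no difference was detectable. The libraries overlapped for Cidec in both genotypes and for Car3 in wild type. Adipoq, Cfd, Plin1, Car3 and Cidec are white adipocyte genes, Scd1 and Fasn make fatty acids, and Ucp1 and Cidea are known from brown fat. They were chosen by name, as a reading of the fat attached to a dissected heart, and all 9 are among the 55401 gene IDs of the count tables. The count filter left 6596 genes for testing, and 6 of the 9 were among them: Cfd, Car3, Scd1, Fasn, Ucp1 and Cidea. Adipoq, Plin1 and Cidec did not pass the filter, and their values are given as counts with counting intervals.

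The study compared wild-type (WT) mice with Rpl3l-/- mice, which lack a ribosomal protein paralogue of heart and skeletal muscle and are called KO here. For each genotype there were 3 Input libraries, made from the RNA of whole heart homogenate, and 3 IP libraries, made from RNA pulled down with ribosomes by an anti-HA antibody (Nano-TRAP). All 12 libraries came from adult heart, were selected for poly(A) RNA and were sequenced as cDNA on a nanopore MinION flow cell. The IP hearts were treated with cycloheximide on excision and their RNA was purified on RNeasy columns, while Input RNA was extracted with TRIzol. The pull-down and these preparation steps therefore cannot be told apart in any comparison of IP with Input. The labels do not name the tagged protein, the cells that carry the tag or the age and sex of the animals, nor do they say which libraries share a heart. The p-values measure the spread between these libraries, with the estimate for each gene drawn toward that of other genes (median prior degrees of freedom 16.9). For a gene that spreads more than others at its level, the p-values and standard errors can therefore understate its own spread.

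White adipocytes store triglyceride in 1 large droplet and secrete hormones and complement factors, whereas brown adipocytes burn fatty acids to make heat through the uncoupling protein of their mitochondria. Both kinds of fat lie close to the mouse heart, on its surface and around the aorta and in the mediastinum, and can stay on the organ at dissection. Heart muscle takes up and burns fatty acids but is not known for the hormones of fat. The RNA of an adipocyte left on a heart enters the homogenate and so is counted in Input.

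Of the 9 genes, 6 matched an entry in the RefSeq promoter table of build GRCm38.p6, which gives 250 bases before and 50 bases after each transcription start. A white adipocyte gene (Adipoq), a fatty acid synthesis gene (Fasn) and the brown fat gene (Ucp1) are shown. They are those of the 6 genes whose windows held a match for the letters searched. Each line holds the 120 bases before the start, 5′ to 3′ on the gene's own strand. Capitals mark CCAAT on either strand, which reads ATTGG on the other strand, and AGGTCA, a half-site of nuclear receptors such as PPARG.
Adipoq: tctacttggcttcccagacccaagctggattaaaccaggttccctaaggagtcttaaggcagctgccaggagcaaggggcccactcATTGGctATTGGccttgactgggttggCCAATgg
Fasn: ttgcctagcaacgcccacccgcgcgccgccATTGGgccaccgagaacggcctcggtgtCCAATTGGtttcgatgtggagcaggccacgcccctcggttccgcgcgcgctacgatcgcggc
Ucp1: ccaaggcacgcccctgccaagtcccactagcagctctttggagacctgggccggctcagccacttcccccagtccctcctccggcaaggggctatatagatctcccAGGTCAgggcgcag

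The Adipoq stretch is chr16:23146416-23146535 on the plus strand, the Fasn stretch is chr11:120824548-120824667 on the minus strand, and the Ucp1 stretch is chr8:83290228-83290347 on the plus strand. The Adipoq and Fasn stretches each held 3 CCAAT matches, and in Fasn the last 2 overlap. The Ucp1 stretch held the half-site 1 time. All matches in the whole windows of these 3 genes lie in the printed stretches. Over the 32851 whole promoter windows of the table, the letters CCAAT occurred in 37.408% and the half-site in 16.255%. Searches on both strands for the TATA box TATAAA, present in 13.616% of all windows, gave no match in the windows of the 6 genes. The same holds for the C/EBP palindrome, letters TTGCGCAA, in 0.183% of all windows, and for a direct repeat of the half-site with 1 base between, in 0.04%. Cfd, Plin1 and Cidec held none of the letters searched for. A match is a description of the letters and not a shown binding site, and the 3 genes share no motif among them.

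Libraries held 169359 to 710868 counts, so the 3 counts taken here as the floor correspond to 4.22 to 17.7 CPM, counts scaled to a common library total. Rpl3l was counted 156 to 182 times in WT IP against 1 to 5 times in KO IP, and 83 to 125 times in WT Input against 7 to 18 times in KO Input. Ventricular cardiomyocyte markers summed to between 41362 and 49787 CPM in every library, with 1 of the 7, Actc1, listed at 0 throughout, so a gene listed at 0 in all libraries is not read as absent here. WT Input 3 stood apart from the other Input libraries in the airway gene Scgb1a1 (secretoglobin of club cells), which was counted 963 times there. Scgb1a1 was counted 104 and 8 times in WT Input 1 and 2, 2, 1 and 12 times in KO Input, and 0 times in all 6 IP libraries. Of the other lung epithelium markers, Sftpa1 had 1, 1 and 2 counts in WT Input 1, 2 and 3 and 0 elsewhere, and Sftpc and Sftpb are listed at 0.

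In Input, all 9 genes were detected, and the SD between libraries was larger in WT than in KO for each of them, a difference in spread that was not tested. The 9 genes together took 0.112%, 0.0327% and 0.214% of the counts of WT Input libraries 1, 2 and 3, and 0.0814%, 0.0590% and 0.0472% of those of KO Input libraries 1, 2 and 3. As summed levels in CPM scaled by the trimmed mean of M values (TMM), WT Input stood at 1187, 328 and 2449.8, a mean of 1321 ± 1067 (SD, n = 3). KO Input stood at 863, 629.7 and 435, a mean of 643 ± 214. The KO values all lie inside the WT range. WT Input 3 was the highest of the 6 Input libraries for 9 of 9 genes, and WT Input 1 was second for 7 of 9. WT Input 2 and KO Input 3 were each the lowest or the second lowest for 8 of 9. In bulk RNA, more fat cells and more RNA per fat cell cannot be told apart.

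**Figure D1:**
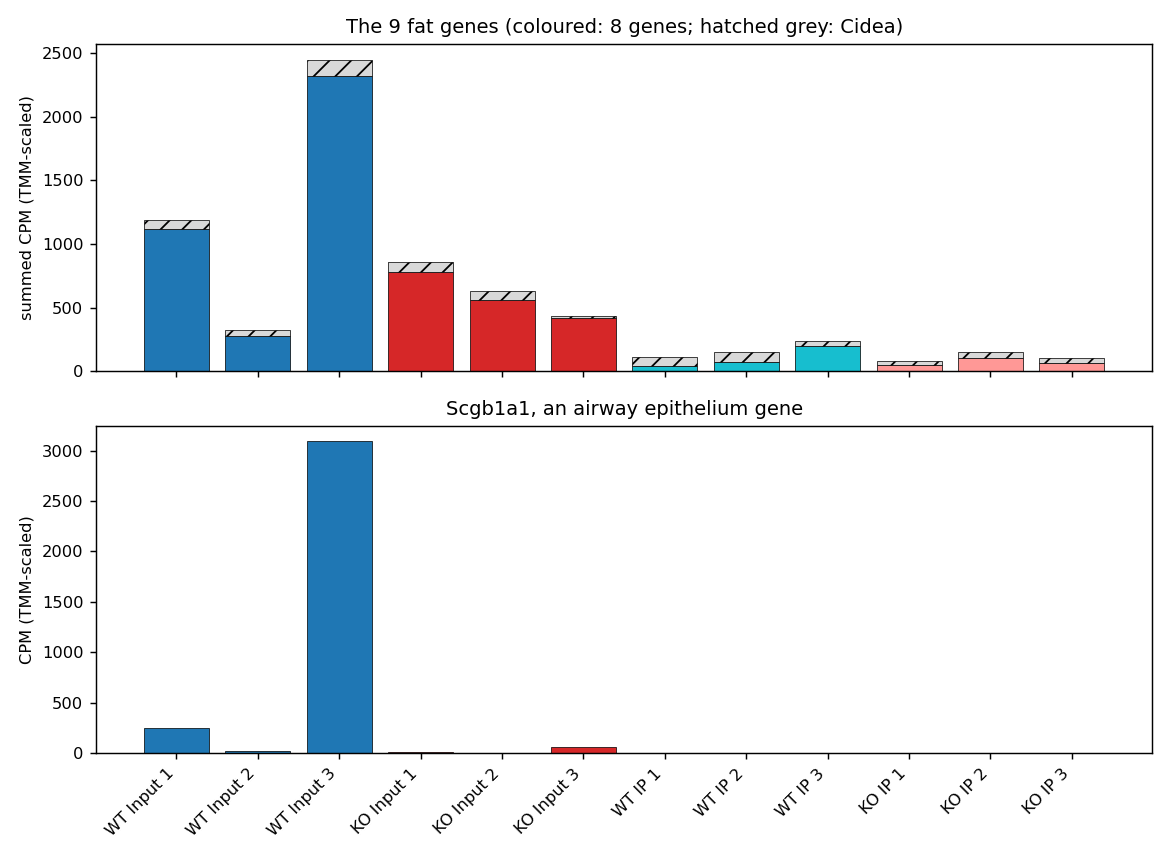
Summed TMM-scaled CPM of the 9 fat genes in each of the 12 libraries (upper bars, Cidea hatched) and CPM of the airway gene Scgb1a1 in the same libraries (lower bars). WT Input 3 and WT Input 1 are the highest in both panels, and Scgb1a1 is at 0 in the 6 IP libraries.

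The secreted proteins come first. Adipoq (ENSMUSG00000022878.5, chr16:23146536-23158028, plus strand) encodes adiponectin, the hormone made almost only by adipocytes. Its level in WT Input 1, 2 and 3 was 59.6, 11.8 and 106 CPM, from 25, 5 and 33 counts. In KO Input 1, 2 and 3 it was 21.8, 14.7 and 5.44 CPM, from 6, 4 and 1 counts. WT Input 3 and 1 stand above all KO libraries and WT Input 2 lies among them, so the groups overlap. Cfd (ENSMUSG00000061780.6, chr10:79890853-79892655, plus strand) encodes adipsin, a complement protease. Its level was 179, 63.6 and 276 CPM in WT Input and 258, 166 and 125 CPM in KO Input. Here KO Input 1 is nearly as high as WT Input 3, and the group means of 173 ± 106 and 183 ± 68.4 CPM (SD, n = 3 each) differ by less than either spread.

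Plin1 and Cidec coat the lipid droplet, perilipin 1 as the gate of lipolysis and the CIDE protein C as a factor of droplet fusion. Plin1 (ENSMUSG00000030546.14, chr7:79720218-79732903, minus strand) was the sparsest gene, with 8, 4 and 12 counts in WT Input and 3, 1 and 0 in KO Input. Cidec (ENSMUSG00000030278.11, chr6:113424634-113435760, minus strand) had 14, 5 and 18 counts in WT Input and 6, 5 and 3 in KO Input. These amount to 33.4, 11.8 and 57.8 CPM for Cidec in WT Input against 21.8, 18.4 and 16.3 CPM in KO Input. For both genes WT Input 3 and 1 are the top libraries, as for Adipoq. Car3 (ENSMUSG00000027559.5, chr3:14863512-14872523, plus strand) encodes carbonic anhydrase 3, abundant in fat and also made by skeletal muscle. Its level was 176, 23.6 and 244 CPM in WT Input and 157, 99.4 and 76.1 CPM in KO Input, so that WT Input 2 was the lowest library of the 6.

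Scd1 and Fasn make lipid. Scd1 (ENSMUSG00000037071.3, chr19:44394455-44407879, minus strand) encodes stearoyl-CoA desaturase, which turns saturated into monounsaturated fatty acids. Its level in WT Input 1, 2 and 3 was 493, 108 and 1114 CPM, from 207, 46 and 347 counts. In KO Input it was 186, 173 and 131 CPM, from 51, 47 and 24 counts. The WT libraries thus lie on both sides of the KO libraries, with means of 572 ± 507 and 163 ± 28.9 CPM (SD, n = 3 each). Fasn (ENSMUSG00000025153.9, chr11:120805846-120824547, minus strand) encodes fatty acid synthase. Its level was 112, 42.4 and 337 CPM in WT Input and 106, 58.9 and 59.8 CPM in KO Input, with the same 2 libraries on top.

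Ucp1 (ENSMUSG00000031710.4, chr8:83290352-83298452, plus strand), the uncoupling protein that defines brown and beige fat, was present in all 6 Input libraries. It had 21, 2 and 45 counts in WT Input, or 50.0, 4.71 and 144 CPM. In KO Input it had 5, 7 and 1 counts, or 18.2, 25.8 and 5.44 CPM. Ucp1 made up 45.7%, 28.6% and 57.7% of the joint counts of Ucp1 and Adipoq in WT Input 1, 2 and 3, and 45.5%, 63.6% and 50% in KO Input 1, 2 and 3. The exact 95% intervals of these shares all overlap, from 30.9% to 61% in WT Input 1 and from 46% to 68.8% in WT Input 3, and are wide elsewhere. A difference between libraries in the balance of the brown to the white marker was thus not detectable at this depth.

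Cidea (ENSMUSG00000024526.9, chromosome 18 at 67343604 to 67367785, plus strand) encodes another CIDE protein of lipid droplets and marks brown fat. Its level was 64.3, 51.9 and 132 CPM in WT Input and 83.7, 70.0 and 16.3 CPM in KO Input. WT Input 3 is again the highest, but it exceeds the lowest WT library, WT Input 2, by a smaller ratio (2.54 times) than for the other genes. An antisense gene that overlaps it, B430212C06Rik, had 0 counts, and no annotated gene overlaps the other 8.

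**Figure D2:**
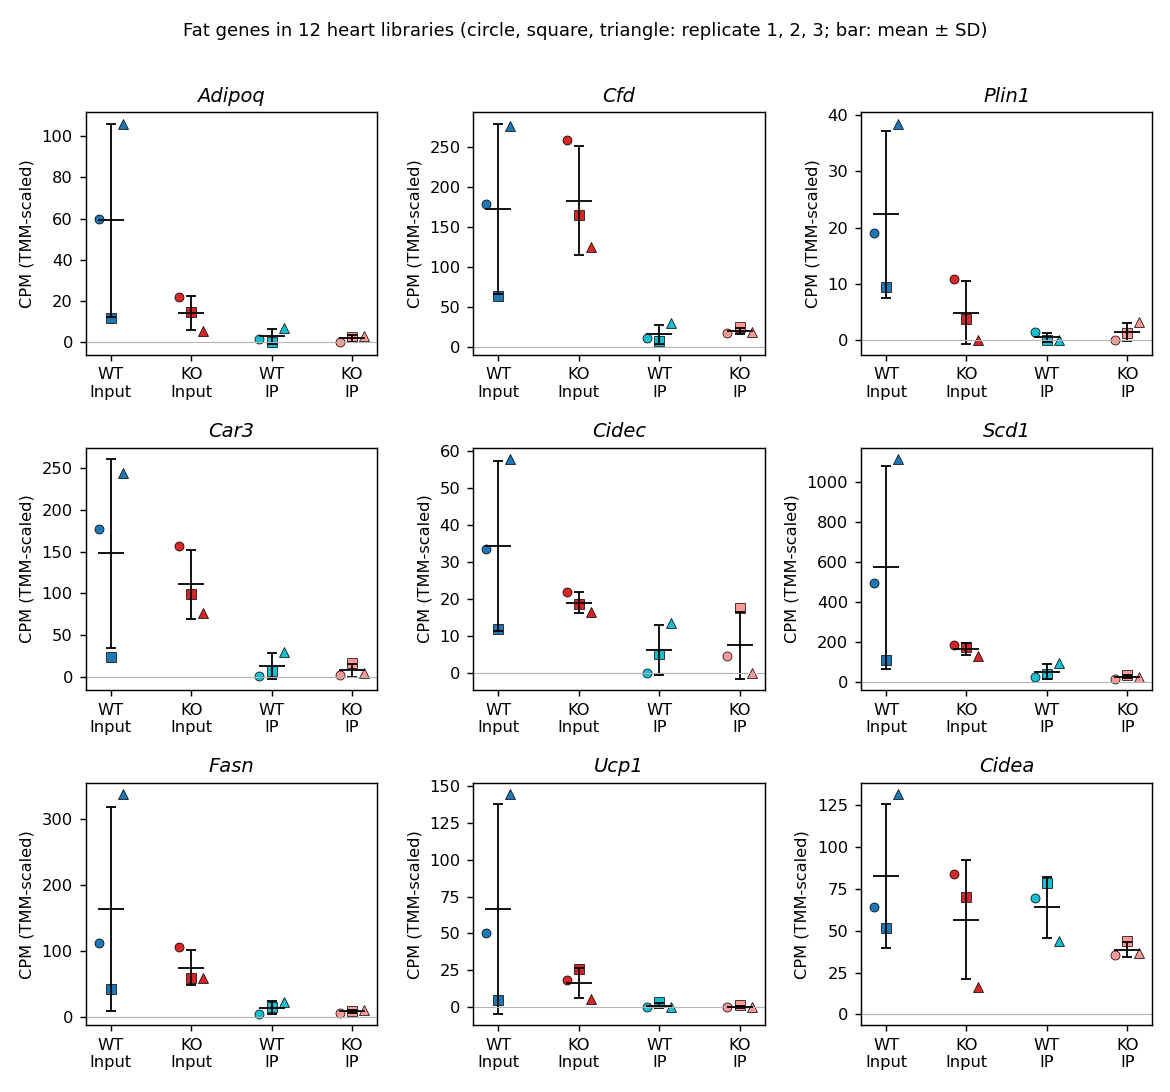
TMM-scaled CPM of each of the 9 genes in the 12 libraries, 1 point per library and a bar for the mean ± SD of each group of 3. For 8 genes most IP points lie below the Input points, which spread widely in WT, from 108 to 1114 CPM for Scd1. IP and Input overlap for Car3 in WT, Plin1 in KO and Cidec in both genotypes. Cidea has IP points at 35.7 to 78.6 CPM, within its Input range.

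The size of the spread between the WT Input libraries can be read from WT Input 3 over WT Input 2. These are the highest and the lowest library by summed level, a pair picked after their values were seen. Scd1 was 10.3 times as high in WT Input 3 (exact 95% counting interval 7.54 to 14.3), Car3 10.4 times (5.33 to 22.5) and Adipoq 8.99 times (3.49 to 29.5). Fasn was 7.94 times as high (4.79 to 13.9), and Ucp1 30.6 times, with a wide interval of 8.0 to 261 because WT Input 2 had 2 counts. Cfd, Plin1 and Cidec stood at 4.34, 4.09 and 4.90 times, and Cidea was the least different at 2.54 times (1.48 to 4.47). These intervals cover counting error only. The airway gene Scgb1a1 moved with the fat genes in WT Input, at 248, 18.9 and 3092 CPM in libraries 1, 2 and 3. It did not follow them in KO Input, where its highest level was 65.3 CPM in library 3, the lowest library for the fat genes. Erythroid markers ranged from 17471 to 158430 CPM in WT Input, with Hba-a1 lowest in library 2 and highest in library 3, and from 16001 to 45497 CPM in KO Input. The part of either in the fat gene levels was not tested.

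Pooled over libraries, 8 of the 9 genes stood in IP at 1.78% to 18% of Input in WT and 2.99% to 44.4% in KO. Cidea stood at 82.6% and 63.9%, and Cfd, Car3, Scd1 and Fasn were, like Cidea, counted in every IP library. Summed over the 9, WT IP libraries 1, 2 and 3 stood at 110.4, 154 and 241 CPM (mean 168 ± 66.4) and KO IP libraries at 82.5, 149 and 103 CPM (mean 111 ± 33.8; SD, n = 3 each). All 6 lie below the lowest Input library. In the test across all genes (edgeR quasi-likelihood, Benjamini-Hochberg adjusted p under 0.05), 5 of the 6 genes tested were lower in IP than in Input, in WT and again in KO, beside 8.67% and 9.78% of all genes tested. Cfd, Car3, Fasn and Ucp1 entered that test through their Input level, since at most 2 of their IP libraries reached the 22.6 CPM that the filter asks of 3 libraries, so this count is not support for a shared behaviour. The IP and Input groups did not overlap for 6 of the 8 genes other than Cidea in each genotype. Of all genes tested, 18.2% were lower without overlap in WT and 15.6% in KO, but Adipoq and Plin1 were not tested. For sparse genes the separation rests on library depth. Ucp1 had 2 counts in WT IP 2 (3.28 CPM) and 2 in WT Input 2 (4.71 CPM). Adipoq had 2 counts in KO IP 3 (3.18 CPM) and 1 in KO Input 3 (5.44 CPM).

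Cfd fell to 11.3, 8.19 and 30.3 CPM in WT IP and 17.8, 25.0 and 19.1 CPM in KO IP, every one under the lowest Input library of 63.6 CPM. Its log2 fold change of IP over Input was -3.35 ± 0.44 (SE) in WT and -3.13 ± 0.44 in KO, with edgeR adjusted p of 6.10e-06 and 1.38e-05. Adipoq had 1, 0 and 4 counts in WT IP and 0, 2 and 2 in KO IP. From pooled counts, Adipoq in IP was 4.80% of its Input level in WT (exact 95% interval 1.51 to 11.8) and 14.1% in KO (3.28 to 47.7). The adiponectin transcript is thus near the floor in every IP library.

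Plin1 had 1 count in all of WT IP and 3 in KO IP, 2.52% of Input in WT (0.0612 to 15.4) and 29.2% in KO (4.27 to 172). The KO interval includes 100%, so no difference was detectable for Plin1 in KO. Cidec was the white adipocyte gene least reduced, at 0, 3 and 8 counts in WT IP and 2, 14 and 0 in KO IP. That is 18% of Input in WT (8.27 to 36.0) and 44.4% in KO (20.3 to 98.3). The KO share rests on KO IP 2, and without that library the pooled log2 ratio moved from -1.17 to -3.37. Car3 stood at 1.41, 6.55 and 30.3 CPM in WT IP and 2.23, 16.2 and 4.77 CPM in KO IP. WT IP 3 lies above WT Input 2 at 23.6 CPM, so the WT groups overlap for Car3. Its log2 fold change was -3.54 ± 0.64 in WT and -3.64 ± 0.71 in KO (edgeR adjusted p = 0.000335 and 0.000801). Both calls held with any 1 library left out, but the size moved. In WT, Car3 ran from -5.15 without WT IP 3 to -2.96 without WT IP 1. In KO it ran from -4.83 without KO IP 2 to -3.30 without KO Input 1.

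Scd1, the desaturase, had 15, 23 and 55 counts in WT IP and 7, 25 and 16 in KO IP. Its levels of 21.2, 37.7 and 92.6 CPM in WT IP lie under all WT Input libraries, and 15.6, 31.2 and 25.4 CPM in KO IP lie far under the 131 CPM of the lowest KO Input library. The log2 fold change was -3.50 ± 0.50 in WT and -2.70 ± 0.63 in KO (edgeR adjusted p = 2.04e-05 and 0.00365). Fasn, the synthase, stood at 4.24, 14.7 and 23.6 CPM in WT IP and at 6.69, 9.99 and 11.1 CPM in KO IP. It fell by 3.50 ± 0.54 on the log2 scale in WT and by 2.96 ± 0.66 in KO (edgeR adjusted p = 5.96e-05 and 0.00245). Without WT Input 3 the WT values were -2.61 for Scd1, -2.47 for Fasn and -2.88 for Cfd, and without WT IP 3 they were -4.26, -4.07 and -4.06, with every call kept. In pooled counts, the 2 lipid synthesis genes kept 9.37% (7.45 to 11.7) and 9.24% (5.87 to 14) of their Input level in WT. In KO they kept 15.3% (10.7 to 21.5) and 12.5% (6.91 to 21.6).

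Ucp1 had 0, 2 and 0 counts in WT IP and 0, 1 and 0 in KO IP. The pooled IP level was 1.78% of Input in WT (0.211 to 6.67) and 2.99% in KO (0.0704 to 19.9). Its log2 fold change was -5.60 ± 0.99 in WT (edgeR adjusted p = 0.000274) and -4.49 ± 1.40 in KO (edgeR adjusted p = 0.0282). In WT it was -4.41 without WT Input 3. Without WT IP 2 or KO IP 2 no IP count of Ucp1 was left in that genotype. The fitted -7.88 in WT and -5.98 in KO then give no measured size. The KO call was lost with DESeq2 (adjusted p = 0.0546) and without 5 of the 6 KO libraries in turn, where the edgeR adjusted p reached 0.132. Across the 8 genes, the share kept in IP ran from 1.78% to 18% in WT and from 2.99% to 44.4% in KO.

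**Figure D3:**
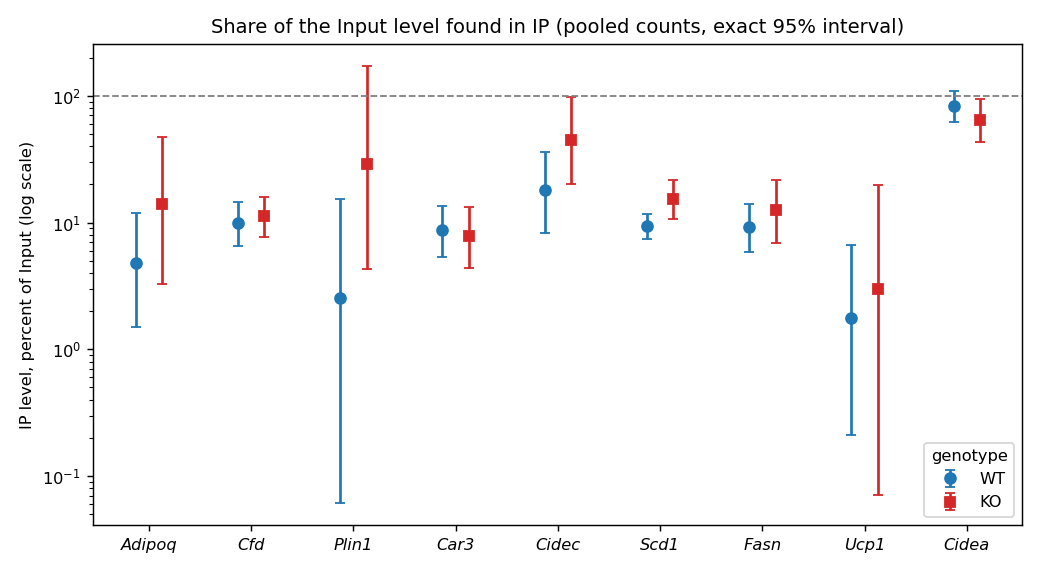
IP level as a percent of Input from counts pooled over 3 libraries, on a log axis, for WT (circles) and KO (squares) with exact 95% intervals that cover counting error only. Scd1, Fasn, Cfd and Car3 sit near 10% in both genotypes, and Cidea sits at 82.6% in WT and 63.9% in KO.

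Cidea departed from the other 8. It had 49, 48 and 26 counts in WT IP and 16, 35 and 23 in KO IP, that is 69.3, 78.6 and 43.8 CPM and 35.7, 43.7 and 36.6 CPM. These values overlap the Input values in both genotypes. IP over Input was -0.32 ± 0.35 on the log2 scale in WT (95% interval -1.01 to 0.36, edgeR adjusted p = 0.583) and -0.62 ± 0.41 in KO (edgeR adjusted p = 0.332). Pooled, Cidea in IP was 82.6% of Input in WT (62.4 to 109.6) and 63.9% in KO (43.6 to 94.8). It made up 18.2% to 62.8% of the counts of the 9 genes in IP libraries against 3.75% to 15.8% in Input libraries. Cidea thus did not share the low IP level of the other 8: it was in every IP library at 35.7 CPM or more, while Ucp1 was at 3.28 CPM or less. In Input, WT Input 3 was its highest library, as for the other 8. Which cells its counts came from was not tested.

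Sums over marker lists show what IP libraries held of other cells, as a percent of the mean Input sum in WT and in KO. Cardiomyocyte markers stood at 99.3% and 107%, fibroblast markers at 118% and 115%, macrophage markers at 104% and 93.3%, and endothelial markers at 67.7% and 69.0%. Erythroid markers, of blood left in the organ, stood at 115% and 110%, with a wide spread (21825 to 193693 CPM in WT IP). Skeletal muscle markers stood at 72.2% and 66.8%. Of the 5 endothelial markers, Egfl7 had the lowest log2 fold change of IP over Input, -1.97 in WT and -1.80 in KO. The median of the 5 was -0.21 and -0.38, with 4 below 0 in WT and 3 in KO, and Pecam1 stood at 0.39 and 0.35. The 9 fat genes stood at 12.7% and 17.4%, and mesothelial markers, which cover the heart surface, at 43.7% and 65.6%. Scgb1a1 was at 0 in IP and was at least 593-fold lower there than in Input in WT and at least 12.9-fold lower in KO, with 3 counts over the group as the floor. The WT limit rested on WT Input 3: it was at least 84.6-fold without that library and at least 929.9-fold without WT Input 2. Without KO Input 3 the 3 Input counts left in KO are at the floor, so no limit can be given (leaving these libraries out was chosen after seeing the data).

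The genotype comparison in Input gave no call among the 6 genes tested, beside 0.182% of all genes, which is 12 genes. In log2 fold change of KO over WT, Scd1 stood at -1.76 ± 0.48 (SE; edgeR adjusted p = 0.240), Ucp1 at -1.85 ± 0.77 (0.638) and Fasn at -1.06 ± 0.49 (0.677). Cidea stood at -0.42 ± 0.40 (edgeR adjusted p = 0.866), Car3 at -0.36 ± 0.53 (0.920) and Cfd at 0.14 ± 0.36 (0.952). For all 9 genes the KO and WT libraries overlap, beside 6.17% of all genes tested whose KO libraries all lay below their WT libraries. Before adjustment, 3 of the 6 had an edgeR p under 0.05 (Scd1, Fasn and Ucp1), beside 7.11% of all genes, and DESeq2 called 0 of the 6. These 3 are also the tested genes in which WT Input 3 exceeds the next highest library the most.

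These values depended on single WT libraries. Without WT Input 3, Scd1 moved to -0.87 (edgeR adjusted p = 0.749), Ucp1 to -0.65 and Fasn to -0.03, and Car3 and Cidea turned to 0.17 and 0.042. Without WT Input 2, Scd1 passed the test at -2.27 (edgeR adjusted p = 0.00115) and Cfd turned to -0.28. Scd1 also passed with no count filter (edgeR adjusted p = 5.04e-14), but that fit gave no weight to a gene's own spread between libraries. In pooled counts, Adipoq in KO Input was 27.6% of WT Input (exact 95% counting interval 13.1 to 52.9), Plin1 26.4% (6.65 to 76.8) and Cidec 59.9% (29.9 to 113). Those intervals leave out the spread between libraries, which for Adipoq ran from 11.8 to 106 CPM in WT alone.

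**Figure D4:**
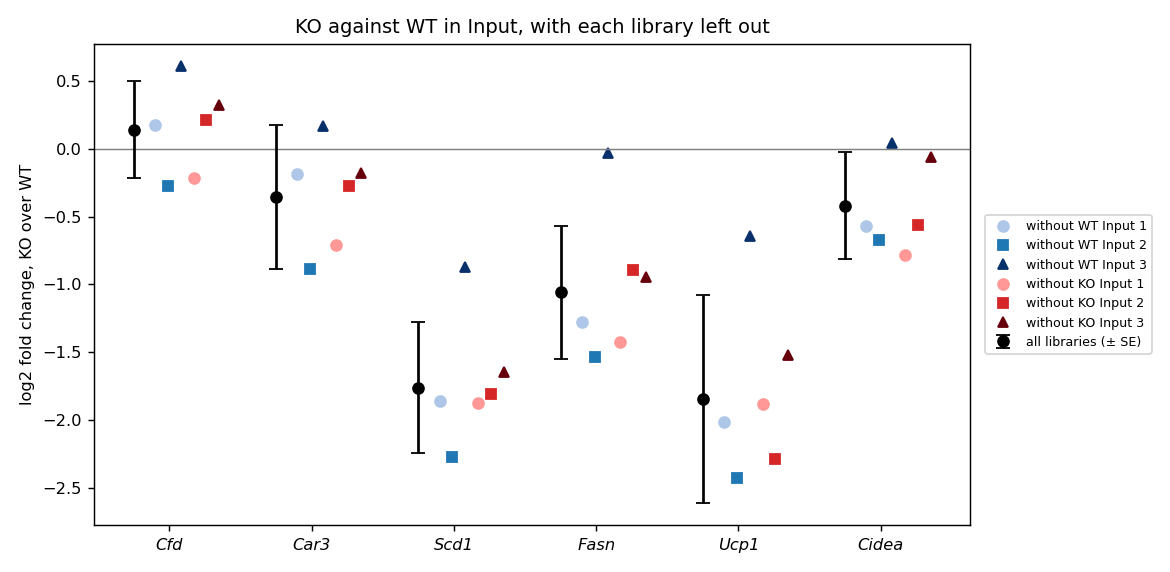
Log2 fold change of KO over WT in Input for the 6 genes tested, from all libraries (black, ± SE) and with each Input library left out in turn (coloured). Leaving out WT Input 3 gives the highest value for every gene, and moves Fasn from -1.06 to -0.03.

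In IP, no gene of the 6 tested passed between the genotypes, beside 0.091% of all genes, which is 6 genes, and 0 of the 6 had an edgeR p under 0.05 before adjustment (5.17% of all genes did) or a DESeq2 call. KO over WT stood at 0.37 for Cfd, -0.46 for Car3, -0.96 for Scd1, -0.52 for Fasn and -0.73 for Ucp1 on the log2 scale. Cidea stood at -0.71 ± 0.36 (edgeR adjusted p = 0.944, unadjusted p = 0.0567). Its WT libraries at 43.8 to 78.6 CPM lie just above its KO libraries at 35.7 to 43.7 CPM, beside 5.47% of all genes tested lower in KO without overlap. The test of whether IP over Input differed between the genotypes called none of the 6 genes, with edgeR adjusted p from 0.895 to 0.994, beside 0.091% of all genes. Its fitted differences were 0.80 for Scd1, 0.54 for Fasn, 1.12 for Ucp1, 0.23 for Cfd, -0.10 for Car3 and -0.29 for Cidea. These comparisons share libraries with those above and are not independent of them.

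Other fat genes were read from 4 lists. Of 25 further white adipocyte genes, 11 were tested, and in IP against Input 0 were higher and 2 lower in WT, beside 8.67% of all genes lower, with a median log2 fold change of -0.59 beside 0.02 over all genes. The 2 were Dgat2 (-0.59, edgeR adjusted p = 0.0347), the last enzyme of triglyceride synthesis, and Agpat2 (-0.80, 0.0394), an acyltransferase of the same pathway. In KO, Dgat2 (-0.75, edgeR adjusted p = 0.0100) and Mest (-3.12, 0.0337), an imprinted gene, were lower, beside 9.78% of all genes, and the median was -0.30 beside 0.01. These calls were weak: leaving out 1 library at a time, Dgat2 and Agpat2 lost theirs in 3 and 5 of 6 cases in WT, and Dgat2 and Mest in 1 and 4 of 6 in KO, with the highest edgeR adjusted p at 0.177. Hormones specific to fat were sparse: resistin (Retn) had 9, 9 and 12 counts in WT Input, 10, 5 and 2 in KO Input and 6 in all IP libraries together. Leptin (Lep) had 4 counts in all, the β3-adrenergic receptor (Adrb3) 9 in WT Input and 5 in KO Input with none in IP, and Lipe is listed at 0. Retn, Lep and Adrb3 were picked after their values were seen.

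Of 20 further genes of fatty acid synthesis, 15 were tested and none was higher in IP. For this list and the next 2, the same 8.67% of all genes lower in WT and 9.78% in KO apply. In WT, 3 were lower: Thrsp (-1.83, edgeR adjusted p = 0.00243), a lipogenic factor, Acly (-1.71, 0.00274), which supplies cytosolic acetyl-CoA, and Tkt (-1.62, 0.00612), a pentose phosphate enzyme. Tkt lost its call without WT Input 3 (edgeR adjusted p = 0.147). In KO, Thrsp (-1.80, edgeR adjusted p = 0.00602) and Acly (-1.48, 0.0235) were lower, but Thrsp was not without KO Input 1 (0.157) and Acly not in 4 of 6 cases with 1 library left out (up to 0.137). The medians were -0.14 in WT and -0.41 in KO, so most of this list did not show the difference of Scd1 and Fasn. Thrsp stood at 160, 44.8 and 202 CPM in WT Input and 171, 70.0 and 59.8 CPM in KO Input, with WT Input 3 highest and WT Input 2 lowest, as for the summed fat genes, but with KO Input 1 above WT Input 1.

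The brown adipocyte list had 9 of 18 genes tested, and many of these also serve heart muscle. In WT, Cpt1b (-4.45, edgeR adjusted p = 8.85e-05), the mitochondrial carnitine palmitoyltransferase of muscle and brown fat, Fabp3 (-0.86, 0.00776) and Cox8b (-0.56, 0.0243) were lower in IP, and the potassium channel Kcnk3 (0.62, 0.0160) was higher. In KO, Cox8b (-0.89, edgeR adjusted p = 0.000580), Cox7a1 (-0.79, 0.00163) and Cpt1b (-2.93, 0.00294) were lower, Fabp3 (-0.74, 0.0195; outside the naming rule) was lower too, and Kcnk3 (0.74, 0.00583) was higher. In WT, with 1 library left out, Kcnk3 and Cox8b lost their calls in 3 and 4 of 6 cases (edgeR adjusted p up to 0.109). Elovl3 and Zic1, more specific to brown fat, are listed at 0. The list's median was -0.56 in WT and -0.74 in KO.

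Of 11 lipid handling genes that fat shares with capillaries and heart muscle, 10 were tested. Gpihbp1, the capillary anchor of lipoprotein lipase, was lower in WT IP (-0.69, edgeR adjusted p = 0.0316), a call lost whichever 1 of the 6 WT libraries was left out. Fabp4 (-1.07, edgeR adjusted p = 0.000232), Rbp7 (-1.86, 0.000359), Gpihbp1 (-1.20, 0.000581) and Cd36 (-0.79, 0.00160) were lower in KO IP. Of the 45 genes tested in the 4 lists, 0 were called between the genotypes in Input and 2 had an edgeR p under 0.05 before adjustment, beside 7.11% of all genes. In Input the smallest p of each list belonged to Agpat2, Acss2, Plin5 and Rbp7 (edgeR adjusted p = 0.251, 0.720, 0.825 and 0.581). In IP, the retinol-binding protein gene Rbp7 fell by 1.77 in KO on the log2 scale (edgeR adjusted p = 0.0104), and its genotype difference in IP over Input also passed (-2.59, edgeR adjusted p = 0.0112). The first call was lost without WT IP 1, WT IP 2 or KO IP 3 (edgeR adjusted p = 0.0524, 0.0781 and 0.0536) and the second without WT Input 1 (0.0634). Rbp7 stood at 73.6, 86.8 and 65.6 CPM in WT IP and 13.4, 26.2 and 23.8 CPM in KO IP, with no overlap, and did not follow the fat genes across WT Input, where library 3 was its lowest at 25.7 CPM.

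**Figure D5:**
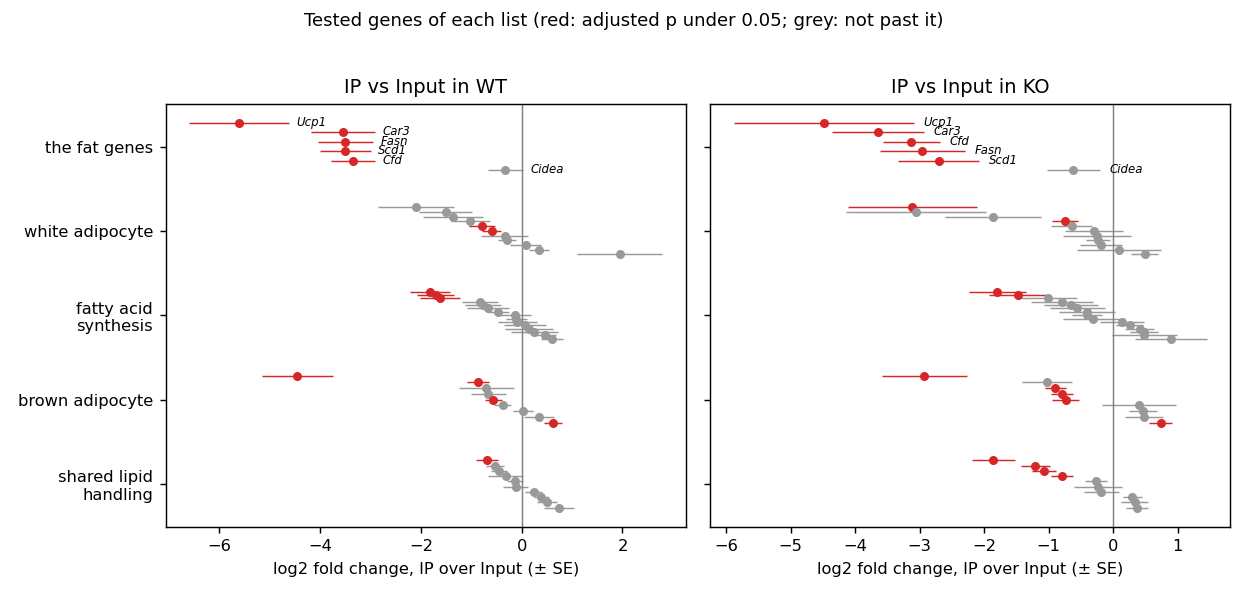
Log2 fold change of IP over Input (± SE) for each tested gene of the 9 and of 4 further lists, in WT and KO, red where the edgeR adjusted p is under 0.05. The tested fat genes other than Cidea lie at -2.70 or lower. Of the 45 tested list genes 30 lie below 0 in each genotype, and only Cpt1b in WT, and Cpt1b, Mest and Pck1 in KO, lie as low. Cfd, Car3, Fasn and Ucp1 passed the count filter through their Input level, which favours low values, so the contrast is not support for a shared behaviour. Cpt1b and Pck1 likewise had IP libraries at no more than 9.54 and 15.1 CPM.

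Genes whose profile was nearest to the 5 white adipocyte genes were ranked among 5864 genes by the root mean square (RMS) difference of centred log2 levels to the summed profile of those 5. Over the 12 libraries the nearest were Fasn (0.63) and Scd1 (0.69), followed by Sln (0.73), Arl5c (0.74), Myl7 (0.79), Rps15a (0.82), Rps12 (0.82) and Myl4 (0.89), beside a median of 1.93 over all ranked genes. Sln, Myl7 and Myl4 are genes of atrial muscle and Rps15a and Rps12 are ribosomal protein genes. Sln stood at 745 to 1219 CPM in Input and 25.5 to 116 CPM in IP. Across Input alone Sln had a narrower range than Scd1: its lowest library there was WT Input 2 at 745 CPM, and WT Input 3 was at 1166 CPM.

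Over the 6 Input libraries alone, the 8 nearest were Nolc1 (0.24), Pcna (0.25), Thrsp (0.25), Tnks1bp1 (0.26), Atxn10 (0.30), Rap1gds1 (0.33), Ext1 (0.35) and Txndc12 (0.35), beside a median of 0.91. Thrsp is the 1 lipogenic gene among them, and most of the others are low, with 4.71 CPM for Nolc1, Tnks1bp1, Rap1gds1 and Txndc12 in WT Input 2, which is 2 counts. Thrsp is also the 1 gene of the 8 that was lower in WT IP, whereas Rap1gds1 was higher there (1.53, edgeR adjusted p = 0.0139). Likeness here is a description over 12 or 6 libraries that share groups and depth, and the 2 rankings had no gene in common.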

How the data were processed

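The deposited files hold raw counts per gene for each library, which the authors made from nanopore cDNA reads; per the submitters' processing notes the tools included minimap2 2.14 and DESeq2 1.34.0 on GRCm38, and neither the counting rule nor its tool is stated there. Of 55401 gene IDs, 55141 matched GENCODE M21 without version and 38803 had 0 counts throughout. Counts were tested with edgeR 4.0.16 (R 4.3.3, limma 3.58.1): filterByExpr (minimum count 10, minimum total 15), TMM scaling, quasi-likelihood tests over all 12 libraries with 1 mean per group, and Benjamini-Hochberg adjustment at 0.05; the standard error is the absolute log2 fold change over the root of F. The common dispersion gave a biological coefficient of variation of 18.2%. CPM are TMM-scaled. Pooled shares divide summed counts by summed TMM-scaled library totals, with exact 95% intervals for counting error, and the floor is 3 counts. With reads simulated for IP against Input in WT over 6596 genes, 39% of genes changed by 1 on the log2 scale and 99% of those changed by 3 were recovered. All genes were simulated with the same dispersion of 0.0333, while Scd1, for example, stood at 572 ± 507 CPM (SD) in WT Input. These rates therefore do not carry over to the fat genes.

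The 9 genes, the lists and the tests were chosen with earlier results of these data known. Named beyond the 9 were, per list and comparison, up to 4 genes past the threshold by smallest p, or the 1 of smallest p where none passed, and the 8 genes nearest in profile (mean of at least 20 CPM, prior count 2). Alternatives were DESeq2 1.42.0 size factors or its test, library totals, other count filters, only the libraries compared, a replicate block and leaving out each library.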

Additional observations from a re-analysis of the deposited data

How the results depend on the processing

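Under 13 alternative settings, 75 of 76 values of the 6 tested genes for IP against Input in WT kept their direction and side of the threshold, and 70 of 76 in KO, the other 6 being Ucp1. Between the genotypes 70 of 76 in Input and 72 of 75 in IP did so, and 93 of 106, under 18 settings, for the difference of IP over Input between them. Reversals came only from leaving out 1 library, where log2 values ranged as follows. KO over WT in Input ranged from -0.28 to 0.61 for Cfd, -0.89 to 0.17 for Car3 and -0.79 to 0.042 for Cidea. KO over WT in IP ranged from -1.65 to 1.15 for Car3, -0.98 to 0.053 for Fasn and -2.24 to 1.56 for Ucp1, and IP over Input in WT from -0.59 to 0.13 for Cidea. The difference between genotypes ranged from -0.25 to 0.94 for Cfd, -1.30 to 1.51 for Car3, -0.10 to 1.56 for Scd1, -0.49 to 1.11 for Fasn, -0.40 to 3.40 for Ucp1 and -0.76 to 0.071 for Cidea. Both ends of the 2 ranges given for Ucp1 come from fits without WT IP 2 or KO IP 2, which left that IP group without a Ucp1 count. The cause of the reversals was not tested. Counts of called genes with no count filter were 77 in Input, 55 in IP and 37 for the difference, a fit over 16598 genes. The stricter filter gave 5 in Input, and DESeq2 gave 11 in IP. Leaving out 1 library gave 4 to 14 in Input, 2 to 8 in IP and 1 to 10 for the difference. The mean summed CPM of the 9 genes then ran from 771 to 1828 in WT Input and from 534 to 741 in KO Input, 131 to 197 in WT IP and 91.9 to 126 in KO IP. With library totals in place of TMM, the all-gene median for IP against Input was 0.11 in WT and 0.15 in KO, and that for KO against WT in IP was 0.11. It changed the split of higher to lower calls from 354 and 572 to 417 and 439 in WT, and from 438 and 645 to 599 and 448 in KO. Without WT Input 2 the split in Input was 7 and 7 instead of 10 and 2. Same-numbered libraries did not deviate together (r from -0.12 to 0.04, own number best in 2 of 12 cases), so the numbers were not taken to pair them. With the replicate number as a block, the calls were 15 in Input, 8 in IP, 858 and 1009 for IP against Input in WT and KO, and 4 for the difference. Fits on only the libraries compared were not run for that difference, which needs all 12. In the sparse IP libraries the floor of 4.22 to 6.76 CPM limits what can be said of Adipoq, Plin1 and Ucp1.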

Other observations

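Some further genes of the white adipocyte list were read as values only. Pck1, the enzyme of glyceride-glycerol synthesis in fat, had 16, 3 and 20 counts in WT Input and 4, 6 and 4 in KO Input, so WT Input 3 and 1 were its top libraries too. In IP it had 0, 6 and 9 counts in WT and 0, 4 and 0 in KO. Rbp4, the retinol carrier secreted by fat and liver, had a different order, with 32 counts in WT Input 1 against 3 and 5 in WT Input 2 and 3, and 1 count in all of WT IP. Nnat had 6, 4 and 2 counts in WT Input and 0 in all 3 KO Input libraries. These genes were picked after their values were seen, and Rbp4 and Nnat did not pass the count filter.

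Several genes known from fat were present in IP at or above their Input level, as pooled shares with exact 95% counting intervals. Plin4, a droplet coat protein, stood at 127% of Input in WT (103 to 157) and 141% in KO (111 to 182). Lpl, lipoprotein lipase, stood at 117% (113 to 121) and 135% (130 to 140.2), and Plin5, the droplet protein of oxidative muscle, at 102% (83.6 to 125) and 141% (109.7 to 183). Those intervals leave out the spread between libraries, and the edgeR test of IP against Input called none of these genes. Its adjusted p in WT and KO was 0.281 and 0.123 for Plin4, 0.389 and 0.150 for Lpl, and 0.939 and 0.158 for Plin5. These shares resemble that of Cidea more than those of the other 8 fat genes. They too were picked after their values were seen.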
